A study of Homo sapiens with 6 samples.

Results

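The genes described are 9 feedback regulators of MAP kinase signaling: the dual-specificity phosphatase genes DUSP1, DUSP4, DUSP5, DUSP6 and DUSP10, the Sprouty genes SPRY2 and SPRY4, and the Sprouty-related genes SPRED1 and SPRED2. They were taken by symbol from a table of 20442 genes, and all 9 were found. RNA-seq was carried out on HK-2 cells, a human proximal tubule epithelial line immortalized with papillomavirus oncogenes. There were 3 libraries labelled HNRNPF overexpression, from cells given HNRNPF by lentivirus, and 3 labelled control, from cells given a control lentivirus that the sample labels call a control plasmid. HNRNPF encodes the RNA-binding protein hnRNP-F, and the study asked how its overexpression changes gene expression in high glucose. The cells had 72 h of culture with 30 mM glucose or with 30 mM mannitol, the osmotic control, and which of these media a library came from is not given. The promoter that drives the delivered gene was not given in the sources used here. The methods call the libraries of a group biological replicates, and the protocol describes parallel wells without tying a library to a well, so the p-values rest on the spread between such replicates.

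When a growth factor binds its receptor, the adaptor GRB2 brings SOS to Ras, and active Ras starts the relay of RAF, MEK and ERK kinases. MAP kinase phosphatases remove the activating phosphates from ERK, p38 and JNK, and most of their genes are switched on by the same kinases, so the pathway raises its own brake. Sprouty proteins act upstream, between the receptor, Ras and RAF, and SPRED proteins bring neurofibromin, which switches Ras off, to the membrane. In the kidney, EGF receptor signaling through ERK takes part in tubule repair after injury, and Sprouty proteins limit branching of the developing collecting system.

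Human HNRNPF (gene ID 3185) went against the label. The methods list the delivered gene under another gene ID. How far its transcripts count toward the human gene's value was not tested. HNRNPF was at 322.83, 349.84 and 320.8 FPKM (sequenced fragments scaled to transcript length and to library size) in the libraries labelled overexpression, against 555.18, 563.36 and 588.68 FPKM in those labelled control. It fell by 0.78 on the log2 scale, with an SE of 0.061 and a limma adjusted p of 1.07e-04. Every direction given here follows the labels as they stand and would be the opposite had the labels been exchanged, which was not tested. Of 5 epithelial markers 4 were at 1 FPKM or more, with CDH1 (E-cadherin) at 0.07 FPKM or less. Of the proximal tubule markers, SLC5A2, GGT1 and PAX8 passed 1 FPKM, LRP2 was listed at 0 in every library, and CUBN, SLC34A1, AQP1 and ANPEP were under 1 FPKM. No endothelial marker passed, with a sum of 0.41 FPKM or less in the libraries labelled overexpression and 0.34 FPKM or less in the control libraries, and KDR was listed at 0. Of 5 leukocyte markers only CD14 passed 1 FPKM, and of 6 fibroblast markers COL1A1 and LUM did. In bulk RNA, fewer cells of a type and less RNA per cell cannot be told apart.

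Among the 9 genes, DUSP1 was higher and DUSP10 and SPRY2 were lower in the libraries labelled overexpression. DUSP5, DUSP6, SPRY4, SPRED1 and SPRED2 did not pass the test, and DUSP4 lay under the expression filter. A gene was tested when its mean over the 6 libraries was at least 1 FPKM, and it was called at a Benjamini-Hochberg adjusted p under 0.05 over the 12461 genes tested, at any fold. Of the 8 members tested, 3 were called, which is 37.5%, where 24.4% of all genes tested were called. By direction, 1 member rose and 2 fell, against 11.3% of all genes called higher and 13.1% called lower. No called member reached a 2-fold change, which together with the adjusted p was met by 1.11% of all genes. The groups did not overlap in 3 of the 8 tested members, where 42.1% of all genes tested did not (19.6% with the libraries labelled overexpression above and 22.5% with them below). The median log2 fold change was -0.023 over the 8 members and -0.013 over all genes tested.

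**Figure D1:**
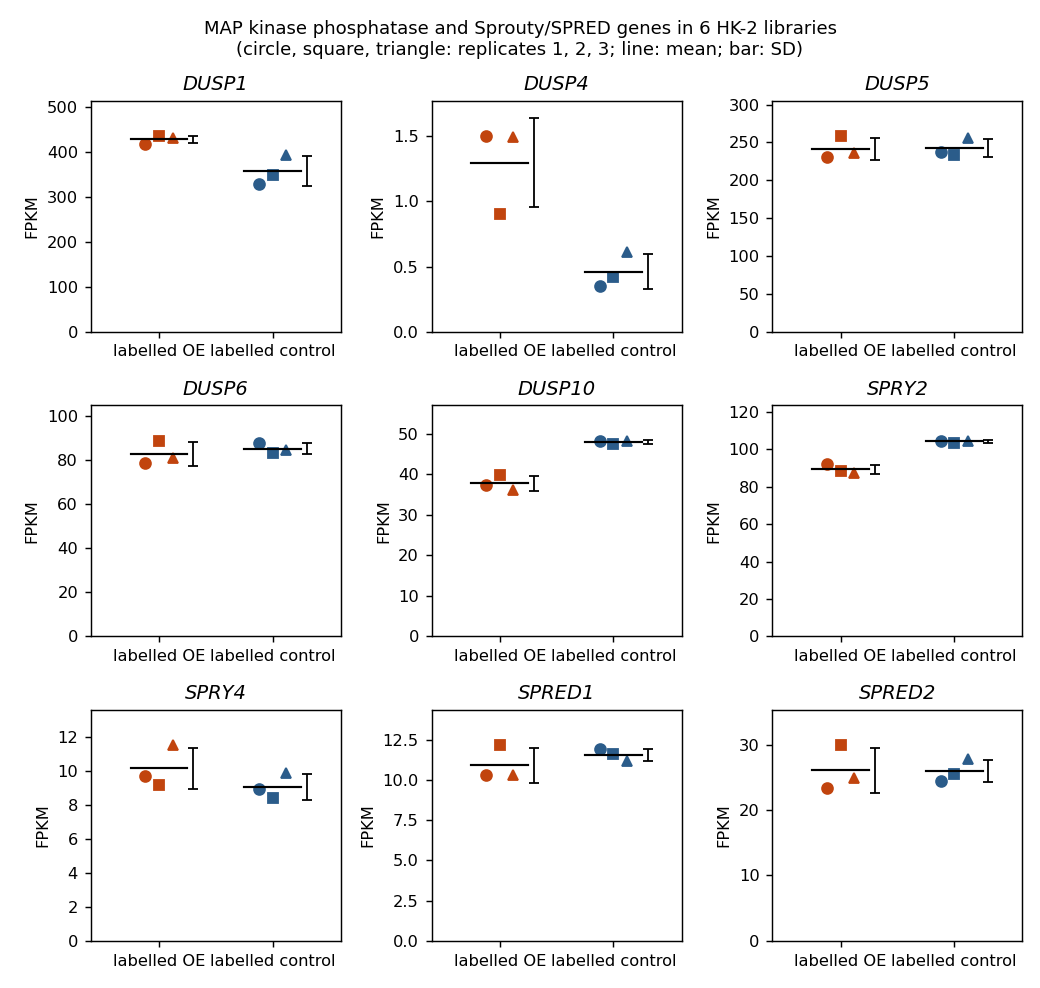
FPKM of the 9 genes (vertical axes from 0) in the 3 libraries labelled overexpression (left, red) and the 3 labelled control (right, blue), with symbols for replicates 1, 2 and 3, a line at the mean and an error bar of 1 SD. The groups are apart in DUSP1, DUSP4, DUSP10 and SPRY2 and overlap in the other 5 genes.

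The sequences just upstream of the 3 called members are shown because these are the genes whose transcripts differed, and because the windows differ in the promoter motifs they hold. Each is the 250 bases before the gene's most upstream annotated start, read 5′ to 3′ on the gene's strand, from RefSeq on GRCh38.p14. Capitals mark matches to any of 5 motifs searched on both strands: the cAMP response element core TGACGT, the AP-1 site TGANTCA, an ETS site CCGGAA, the CCAAT box CCAAT and the serum response CArG box. No motif contains another, but the CRE core overlaps its own reverse complement in the full palindrome. The lines stand for chr5:172771196-172771445, chr1:221742090-221742339 and chr13:80341127-80341376, all on the minus strand.
DUSP1: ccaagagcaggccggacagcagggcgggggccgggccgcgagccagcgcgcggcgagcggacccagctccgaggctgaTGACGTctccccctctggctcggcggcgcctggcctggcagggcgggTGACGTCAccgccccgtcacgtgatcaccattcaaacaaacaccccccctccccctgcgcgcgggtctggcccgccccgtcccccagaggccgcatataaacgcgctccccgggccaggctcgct
DUSP10: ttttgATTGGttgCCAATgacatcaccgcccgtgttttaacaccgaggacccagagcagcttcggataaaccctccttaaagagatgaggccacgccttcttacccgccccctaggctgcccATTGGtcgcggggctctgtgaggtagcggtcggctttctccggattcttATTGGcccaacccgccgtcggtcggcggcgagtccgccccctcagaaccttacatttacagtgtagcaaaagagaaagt
SPRY2: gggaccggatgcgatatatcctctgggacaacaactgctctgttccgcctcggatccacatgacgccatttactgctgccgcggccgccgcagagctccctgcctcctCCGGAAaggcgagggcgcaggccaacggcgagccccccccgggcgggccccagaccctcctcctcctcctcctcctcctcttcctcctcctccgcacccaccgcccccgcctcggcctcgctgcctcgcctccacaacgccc

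The DUSP1 window held the CRE core 172 bases before the start and a full palindrome that begins 125 bases before it. The DUSP10 window held 4 CCAAT boxes and no CRE core, and the SPRY2 window held 1 ETS site, 142 bases before its start. A CRE core was found in 7.42% of 27305 gene windows of the same length, a CCAAT box in 33.0%, the ETS site in 14.8%, an AP-1 site in 6.57% and a CArG box in 1.15%. Windows were matched for 7 of the 9 genes, all but DUSP4 and DUSP5. DUSP6 held 1 CCAAT box, and the windows of SPRY4, SPRED1 and SPRED2 held no match. A match is a string of letters and not a measured binding site.

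The phosphatase genes DUSP1 and DUSP5 had the highest levels of the members. DUSP1 (gene ID 1843, GRCh38.p14 chromosome 5, 172768096 to 172771195) encodes a nuclear phosphatase made within minutes of growth factor or stress signals, which acts mainly on p38 and JNK and also on ERK. It was at 418.71, 435.37 and 429.93 FPKM in the libraries labelled overexpression, against 329.76, 349.65 and 393.76 FPKM in those labelled control. Every library labelled overexpression lay above every control library, and the control libraries spread more widely. DUSP1 rose, with means of 428 ± 8.50 and 358 ± 32.8 FPKM (SD, n = 3 each). The log2 fold change was 0.26 with an SE of 0.072 (95% interval 0.10 to 0.42), at a limma adjusted p of 0.027. Leaving out 1 library at a time ended the call in 5 of 6 cases: without overexpression replicate 1 (limma adjusted p = 0.051), 2 (0.070) or 3 (0.087) and without control replicate 1 (0.096) or 2 (0.110). It was kept without control replicate 3, the highest control (0.0043), and it was also lost with limma without its variance trend (0.067).

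DUSP10 (gene ID 11221, chromosome 1, 221701424 to 221742089) encodes the phosphatase that prefers p38 and JNK and spares ERK, so it sits on the stress branch of the family. Its level was 37.4, 39.81 and 36.11 FPKM in the libraries labelled overexpression, against 48.29, 47.45 and 48.28 FPKM in the libraries labelled control. The groups were well apart, and the 3 control libraries were within 1 FPKM of each other. DUSP10 fell 1.27-fold, with means of 37.8 ± 1.88 and 48.0 ± 0.482 FPKM (SD, n = 3 each). The log2 fold change was -0.35 with an SE of 0.064 (95% interval -0.49 to -0.20), at a limma adjusted p of 0.0059. This was the member whose call held when any 1 of the 6 libraries was left out, with limma adjusted p between 0.0065 and 0.032.

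DUSP5 (gene ID 1847, chromosome 10, 110497907 to 110511533) encodes a nuclear phosphatase that acts on ERK alone and holds it in the nucleus. It was at 231.17, 258.47 and 236.01 FPKM in the libraries labelled overexpression, against 237.06, 233.97 and 255.92 FPKM in those labelled control. The groups overlapped almost fully (log2 fold change -0.0032, limma adjusted p = 0.978, 95% interval -0.15 to 0.14). DUSP6 (gene ID 1848, chromosome 12, 89347235 to 89352501), the cytoplasmic ERK phosphatase and the member most often read as a gauge of ERK output, was at 78.62, 88.94 and 81.21 FPKM, against 87.95, 83.23 and 84.71 FPKM in the control libraries. Its highest and lowest values were both in the libraries labelled overexpression, and the difference did not pass (log2 fold change -0.042, limma adjusted p = 0.663, 95% interval -0.19 to 0.10). Across both ERK-selective phosphatases the intervals ran no lower than -0.19 and no higher than 0.14.

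DUSP4 (gene ID 1846, chromosome 8, 29333064 to 29350684) encodes a nuclear phosphatase of ERK, JNK and p38. It was at 1.5, 0.9 and 1.49 FPKM in the libraries labelled overexpression, against 0.35, 0.42 and 0.61 FPKM in those labelled control, with a mean of 0.878 FPKM over the 6 libraries that kept it from the test. Every library labelled overexpression was above every control library. The means were 1.30 ± 0.344 and 0.460 ± 0.135 FPKM (SD, n = 3 each), a log2 fold change of 1.31 with a two-sided exact permutation p of 0.1, the smallest that 3 against 3 libraries allow. With no expression filter, DUSP4 had a limma adjusted p of 0.021. With a pseudocount of 1 in place of 0.1 its log2 fold change was 0.65, since its values are low. Read depth could not be recovered from the table, so no counting interval can be given for these low values.

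SPRY2 (gene ID 10253, chromosome 13, 80335976 to 80341126) encodes the Sprouty protein that binds GRB2 and the ubiquitin ligase CBL. It was at 92.02, 88.48 and 87.48 FPKM in the libraries labelled overexpression, against 104.38, 103.44 and 104.63 FPKM in those labelled control. The groups did not overlap, and the control libraries were nearly equal. SPRY2 fell 1.17-fold, with means of 89.3 ± 2.39 and 104 ± 0.627 FPKM (SD, n = 3 each). The log2 fold change was -0.22 with an SE of 0.055 (95% interval -0.35 to -0.098), at a limma adjusted p of 0.019. The call was lost without overexpression replicate 2 (limma adjusted p = 0.051) or 3 (0.085), without control replicate 2 (0.081), and with the values rescaled to TPM (0.055). The 12 tested genes within 5 Mb of SPRY2 had a median log2 fold change of -0.15, with 1 called lower and 0 higher. A neighbour shift was also removed from each library: the median there of these genes' log2 values, each centred on its mean over the 6 libraries. This shift, also used for the genes below, need not equal the median fold change. With it removed, SPRY2 was at -0.14 and no longer passed (limma adjusted p = 0.172).

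SPRY4 (gene ID 81848, chromosome 5, 142310430 to 142325021), whose protein restrains Ras and RAF activation, was at 9.73, 9.19 and 11.52 FPKM in the libraries labelled overexpression, against 8.92, 8.38 and 9.88 FPKM in the control libraries. The groups overlapped (log2 fold change 0.16, limma adjusted p = 0.316, 95% interval -0.089 to 0.41). SPRED1 (gene ID 161742, chromosome 15, 38252836 to 38357249), the partner of neurofibromin that is mutated in Legius syndrome, was at 10.29, 12.17 and 10.31 FPKM, against 11.95, 11.59 and 11.18 FPKM in the control libraries. It did not pass (log2 fold change -0.087, limma adjusted p = 0.523, 95% interval -0.30 to 0.12). SPRED2 (gene ID 200734, chromosome 2, 65307175 to 65432599), a related Ras inhibitor, was at 23.37, 29.92 and 24.92 FPKM, against 24.49, 25.55 and 27.84 FPKM in the control libraries. Its means were nearly equal, and the interval was wide enough to hold a log2 change of 0.22 either way (limma adjusted p = 0.999).

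**Figure D2:**
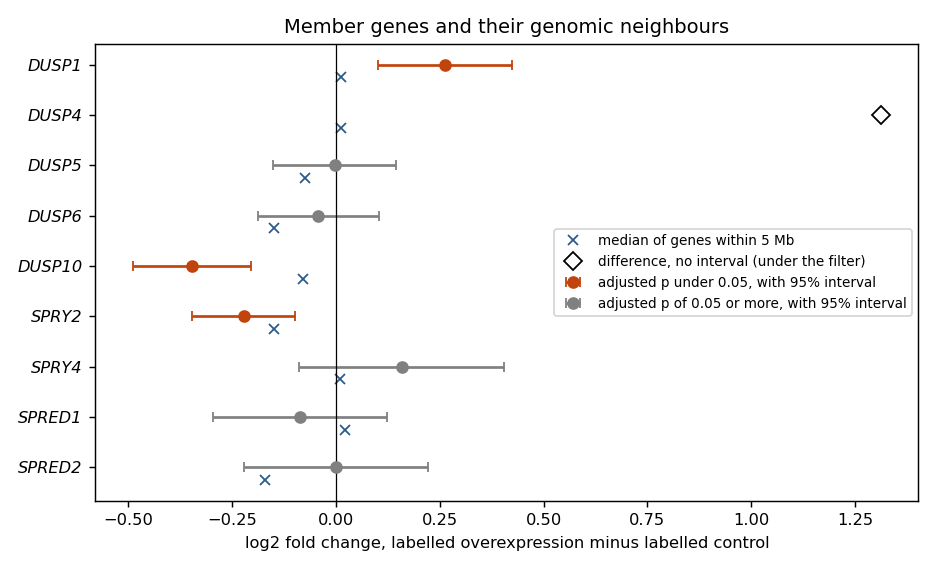
Log2 fold change of each gene, labelled overexpression minus labelled control, with its 95% interval (horizontal axis), and the median log2 fold change of the tested genes within 5 Mb on either side (cross). DUSP1 at 0.26, DUSP10 at -0.35 and SPRY2 at -0.22 are the called genes, and DUSP4 is drawn at 1.31 with no interval because it lay under the filter.

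Genes near the members were described as well. Over all genes tested, 11.3% were called higher and 13.1% lower, and the neighbour counts are to be read beside these shares. Within 5 Mb of DUSP10, 40 genes were tested, with a median log2 fold change of -0.079, and 8 of them were called lower and 2 higher. DUSP10 still passed with the shift removed (log2 fold change -0.27, limma adjusted p = 0.025). The 53 neighbours of DUSP1 had a median of 0.012, and DUSP1 was at 0.25 with the neighbours' shift removed (limma adjusted p = 0.035). The neighbours of SPRED2 (median -0.17, 10 of 51 lower and 0 higher) and of DUSP6 (-0.15, 4 of 16 lower and 0 higher) were lower while these genes were not called. The part that a regional shift has in the members' values was not tested beyond this subtraction.

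By level per length, the 9 genes kept 1 order of means in both groups: DUSP1, DUSP5, SPRY2, DUSP6, DUSP10, SPRED2, SPRED1, SPRY4 and DUSP4. In the libraries labelled overexpression the ranges of SPRY2 (87.48 to 92.02 FPKM) and DUSP6 (78.62 to 88.94) overlapped, as did those of SPRED1 (10.29 to 12.17) and SPRY4 (9.19 to 11.52). In the libraries labelled control no neighbours in the order overlapped. DUSP1 and DUSP5 together held between 72.0% and 72.5% of the summed FPKM of the 9 genes in the libraries labelled overexpression, against 66.4% to 69.4% in the control libraries. Overexpression replicate 2 was the highest of its group for 6 of the 9 genes (DUSP1, DUSP5, DUSP6, DUSP10, SPRED1 and SPRED2), and control replicate 3 was the highest of its group for 6 (DUSP1, DUSP4, DUSP5, SPRY2, SPRY4 and SPRED2).

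The remaining genes of both families were described next. Of 8 further phosphatase, Sprouty and SPRED genes, 7 were tested, and 2 rose and 0 fell by limma (2 and 0 at an unadjusted p under 0.05), which is 28.6% beside 24.4% of all genes tested, with a median log2 fold change of 0.21. SPRY1, a Sprouty gene needed for normal ureteric bud outgrowth in mice, was at 8.18, 7.77 and 8.53 FPKM in the libraries labelled overexpression, against 4.13, 4.23 and 3.55 FPKM in those labelled control. The groups lay far apart, and SPRY1 changed more than any tested member (log2 fold change 1.02, SE 0.112, limma adjusted p = 5.15e-04). That call held when any 1 of the 6 libraries was left out (limma adjusted p of 0.0011 to 0.0043) and with the neighbours' shift removed (log2 fold change 0.96). SPRY1 rose while SPRY2 fell: SPRY1 made up 7.37% to 7.93% of the summed FPKM of SPRY1, SPRY2 and SPRY4 in the libraries labelled overexpression, against 3.01% to 3.64% in the control libraries. SPRY2 made up 81.4% to 83.9%, against 88.6% to 89.1% in the control libraries. DUSP9, a cytoplasmic ERK phosphatase, rose as well (10.4 ± 0.938 and 7.75 ± 0.491 FPKM, SD, n = 3 each), at a log2 fold change of 0.42 and a limma adjusted p of 0.016. It was not called without overexpression replicate 1 (0.055) or 3 (0.068) or without control replicate 1 (0.052) or 2 (0.057). DUSP2, DUSP7, DUSP8, DUSP16 and SPRED3 did not pass, and SPRY3 lay under the filter.

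**Figure D3:**
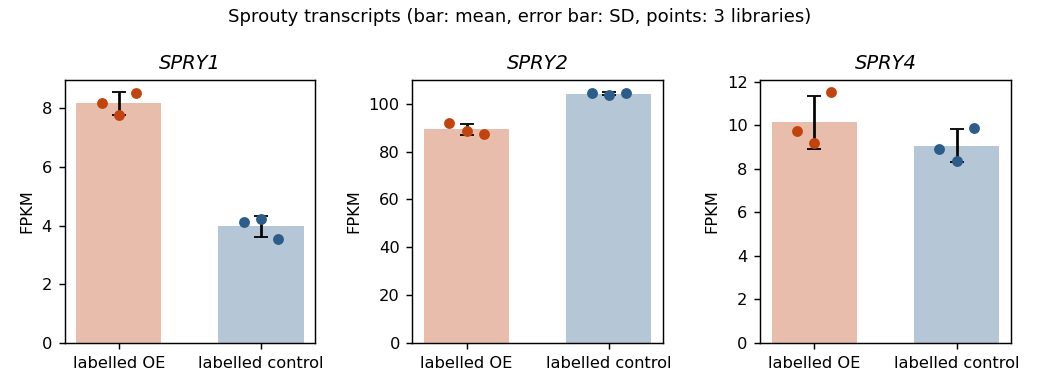
FPKM of SPRY1, SPRY2 and SPRY4 (each axis from 0) in the libraries labelled overexpression (red, left) and labelled control (blue, right), with bars at the mean, error bars of 1 SD and a point for each of 3 libraries. SPRY1 averages 8.16 and 3.97 FPKM, SPRY2 89.3 and 104 FPKM, and SPRY4 10.1 and 9.06 FPKM.

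In the Ras-ERK cascade that these genes restrain, most genes did not pass. Of 25 genes, 4 rose, 3 fell and 18 were not called, 28.0% called beside 24.4% of all genes tested, and the median log2 fold change was -0.0083. HRAS, a Ras GTPase, was at 51.83, 47.33 and 52.37 FPKM in the libraries labelled overexpression, against 27.73, 34.45 and 30.96 FPKM in the control libraries (log2 fold change 0.70, limma adjusted p = 9.89e-04). BRAF, the RAF kinase with the highest basal activity, was at 3.92, 3.62 and 4.49 FPKM, against 5.58, 6.95 and 6.35 FPKM in the control libraries (log2 fold change -0.64, limma adjusted p = 0.0090). Neither gene's groups overlapped, and both calls held when any 1 of the 6 libraries was left out. The 59 tested neighbours of HRAS had a median of 0.21, with 17 higher and 1 lower. With the neighbours' shift removed HRAS still passed, at a smaller log2 fold change of 0.52 (limma adjusted p = 0.0050). MAP2K1, which encodes the ERK kinase MEK1, rose (130 ± 2.76 and 103 ± 4.15 FPKM, SD, n = 3 each), at a log2 fold change of 0.33 and a limma adjusted p of 0.0047. The adaptor GRB2 rose by the same log2 fold change of 0.33 (limma adjusted p = 0.0070). The 88 tested genes within 5 Mb had a median of 0.28, with 36 higher and 2 lower. GRB2 no longer passed once the neighbours' shift was removed (log2 fold change 0.069, limma adjusted p = 0.622). Further calls, named after their values were seen, included PEBP1 (log2 fold change 0.25) and RPS6KA3 (-0.33). PEBP1 lost its call without control replicate 2 (limma adjusted p = 0.080), and RPS6KA3 without overexpression replicate 1 (0.059) or control replicate 1 (0.058) or 2 (0.083). MAPK3, which encodes the kinase ERK1 and was also picked after its value was seen, did not pass (log2 fold change 0.15, limma adjusted p = 0.246).

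Genes listed here as ERK targets were called at about the share of all genes. Of 20 such genes, 3 rose and 2 fell, 25% in all beside 24.4% of all genes tested, with a median log2 fold change of 0.041. EPHA2, an ephrin receptor, was at 137.11, 158.57 and 148.94 FPKM in the libraries labelled overexpression, against 98.62, 104.68 and 121.66 FPKM in those labelled control (log2 fold change 0.46, limma adjusted p = 0.0069), and its call held when any 1 of the 6 libraries was left out. The 67 tested neighbours of EPHA2 had a median of 0.20, with 23 higher and 5 lower. With the neighbours' shift removed the log2 fold change of EPHA2 was 0.26 (limma adjusted p = 0.031). CCND1, the cyclin of early G1, rose (log2 fold change 0.32, limma adjusted p = 0.019). It lost its call without overexpression replicate 2 (0.062) or 3 (0.067), without control replicate 1 (0.061) or 2 (0.080), with limma without trend (0.053) and with the shift of neighbours removed (0.111). HBEGF, a ligand of the EGF receptor, fell (112 ± 5.24 and 134 ± 4.89 FPKM, SD, n = 3 each), at a log2 fold change of -0.26 and a limma adjusted p of 0.016, a call lost without overexpression replicate 1 (0.059) or control replicate 2 (0.067) and with TPM (0.056). EGR1, an immediate early transcription factor, was at 182.81, 250.6 and 192.54 FPKM, against 247.43, 261.7 and 289.93 FPKM in the control libraries. Its groups overlapped through overexpression replicate 2, and its call (log2 fold change -0.36, limma adjusted p = 0.042) was lost without overexpression replicate 1 (0.118) or 3 (0.131) and without control replicate 1 (0.057), 2 (0.104) or 3 (0.087). EGR1 also lost it with no filter (limma adjusted p = 0.079), with quantile (0.078), cyclic loess (0.093) and TPM scaling (0.090), with limma without trend (0.095) and with the neighbours' shift removed (0.060). ETV4, an ETS factor named after its value was seen, was the fifth call (log2 fold change 0.24, limma adjusted p = 0.039). It was lost without overexpression replicate 1 (0.068), 2 (0.124) or 3 (0.072), without control replicate 1 (0.114) or 2 (0.125), with no filter (0.053), TPM (0.052) or limma without trend (0.073), and with the shift of neighbours removed (0.706).

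Other feedback genes and Sprouty partners gave 1 rise and 1 fall among 11 tested, 18.2% beside 24.4% of all genes tested. Both called genes encode proteins that switch Ras off. DAB2IP was at 15.94, 15.96 and 16.34 FPKM in the libraries labelled overexpression, against 9.75, 11.3 and 12.95 FPKM in those labelled control (log2 fold change 0.51, limma adjusted p = 0.0090). RASAL2 was lower (12.5 ± 1.16 and 15.9 ± 0.662 FPKM, SD, n = 3 each), at a log2 fold change of -0.35 and a limma adjusted p of 0.021, a call lost without overexpression replicate 1 (0.070) or 3 (0.070) or control replicate 2 (0.066) and with TPM (0.060). IL17RD, which encodes the ERK inhibitor Sef, lay under the filter with 0.47, 0.64 and 0.74 FPKM in the libraries labelled overexpression, against 0.68, 0.78 and 0.86 FPKM in the control libraries.

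The p38 and JNK cascade, the substrate side of DUSP1 and DUSP10, gave 2 rises and 2 falls among 20 genes. That is 20.0% called beside 24.4% of all genes tested, with a median log2 fold change of 0.021. MAPK8, which encodes JNK1, was at 25.19, 26.27 and 27.05 FPKM in the libraries labelled overexpression, against 33.19, 33.3 and 32.57 FPKM in the control libraries (log2 fold change -0.33, limma adjusted p = 0.0071). MAPK8 held when any 1 of the 6 libraries was left out but not once the shift of its neighbours was removed (log2 fold change -0.16, limma adjusted p = 0.095). MAPKAPK3, a kinase that p38 activates, fell (36.2 ± 0.966 and 47.7 ± 0.808 FPKM, SD, n = 3 each), at a log2 fold change of -0.40 and a limma adjusted p of 0.0026. Of its 122 tested neighbours 49 fell and 2 rose, with a median of -0.20. MAPKAPK3 still passed with the neighbours' shift removed, at a smaller log2 fold change of -0.20 (limma adjusted p = 0.039). MAP2K3, a kinase of p38, and MAP2K7, a kinase of JNK, rose (log2 fold change 0.34 and 0.33, limma adjusted p = 0.029 and 0.024). MAP2K3 lost its call without overexpression replicate 2 (0.101) or 3 (0.066), without control replicate 1 (0.088) or 2 (0.090), with no filter (0.053), with limma without trend (0.068) and with the neighbours' shift removed (0.132). MAP2K7 lost its call without overexpression replicate 1 (0.065), 2 (0.053) or 3 (0.069) without control replicate 1 (0.066) or 2 (0.080), and with limma without trend (0.055).

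**Figure D4:**
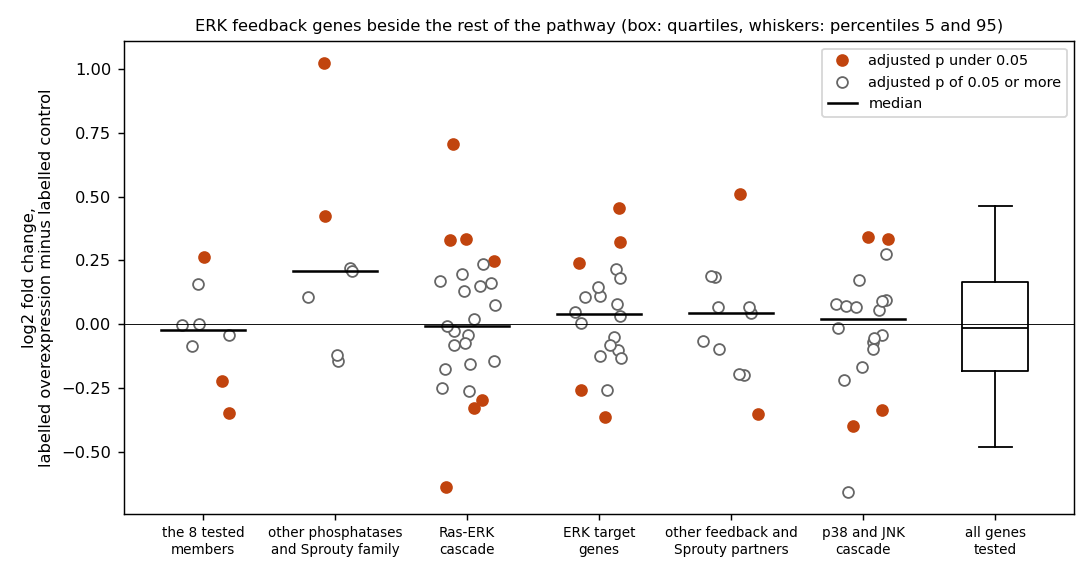
Log2 fold change, labelled overexpression minus labelled control (vertical axis), of the tested genes of each list, filled where the adjusted p is under 0.05, with a line at the list's median and a box with quartiles and percentiles for all 12461 genes tested. Calls lie on both sides of 0 in each list but that of the other phosphatase and Sprouty genes, where SPRY1 stands at 1.02.

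Genes with the most similar profile were found for each called member, as the smallest root mean square difference between centred log2 values over the 6 libraries. They were BAG6, CHTF18 and QSOX1 for DUSP1 (0.017 to 0.021), ZFAND4, WARS1 and GOLGA5 for DUSP10 (0.018 to 0.023), and IMPDH2, WLS and PNPLA3 for SPRY2 (0.016 to 0.018). The measure chose these genes, so it is a description with no test. In the fit over all genes, ZFAND4 (limma adjusted p = 0.096) and PNPLA3 (0.088) were not called. CHTF18 (limma adjusted p = 0.082), GOLGA5 (0.546) and IMPDH2 (0.879) were called there but did not pass with the neighbours' shift removed. Leaving out 1 library at a time ended the call in 5 of 6 cases for BAG6, CHTF18, IMPDH2 and WLS and in 2 of 6 for QSOX1. The calls of WARS1 and GOLGA5 held in all 6.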

How the data were processed

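Poly(A)-selected, strand-specific, paired-end libraries were sequenced by the authors, who trimmed reads with FASTX-Toolkit, aligned them to GRCh38 with HISAT2, which the submitters' processing notes also list, and kept reads that mapped uniquely. The deposited values are FPKM with 2 decimals, a unit scaled to length and library size. The sources used here give no annotation or counting tool for this table. The methods describe a batch adjustment of the RNA-seq data with ComBat_seq, without saying whether this table had it. As a count model cannot be run on FPKM, log2(FPKM + 0.1) of 12461 genes with a mean of at least 1 FPKM was fitted here with limma 3.58.1 (trend, two-sided) in R 4.3.3. The script was tested on simulated data. Values for fold change understate low genes. Depth was sought in genes of 1 exon, where 46.4% to 57.4% of values at best came within 0.15 of whole fragments (30.0% by chance), so depth is unknown.

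The members and lists were chosen with earlier results of these data known. Named genes were HNRNPF, the 9 members, up to 4 called genes of largest change in each of 5 pathway lists, and the 3 genes of nearest profile to each called member. Alternatives were a pseudocount of 1 or 0.01, a filter at 5 FPKM or none, median-of-ratios, quantile, cyclic loess and TPM scaling, limma without trend or robust, the replicate number as a block, removal of the median shift of genes within 5 Mb, and leaving out each library. Motifs and figures were made with Python 3.11.15 and matplotlib 3.10.9. Some genes of the lists are counted but not reported here by name.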

Additional observations from a re-analysis of the deposited data

How the results depend on the processing

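Of the members, DUSP10 kept its direction and its call under every alternative run. DUSP1 was not called with limma without trend (log2 fold change 0.26), and SPRY2 was not called with TPM (-0.19) or with the neighbours' shift removed (-0.14). Leaving out a library gave 0.21 to 0.33 for DUSP1 and -0.24 to -0.21 for SPRY2. DUSP4 was called with no filter (1.31) and was not tested elsewhere. Some members that passed nowhere turned direction: DUSP5 was at 0.0037 with median-of-ratios, 0.038 with quantile, 0.045 with cyclic loess and 0.033 with TPM scaling and at 0.047 with the neighbours' shift removed, where DUSP6 was at 0.11. Leaving out a library gave -0.052 to 0.037 for DUSP5 and -0.10 to 0.075 for SPRED2. The similar-profile gene IMPDH2 turned to 0.013 with the neighbours' shift removed.

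The count of 1 member higher was 2 with no filter, 0 with limma without trend and 0 to 1 without a library. The count of 2 lower was 1 with TPM, 1 with the neighbours' shift removed and 1 to 2 without a library. The counts over all genes moved too, and the counts of members and lists are to be read beside them. Of 12461 genes, 1410 higher and 1629 lower became 536 to 2079 and 711 to 2175 without a library. They were 1048 and 1249 without trend, 1433 and 1248 with TPM, and 1039 and 1139 with the neighbours' shift removed. With no filter they were 1112 and 1305 of 17096 genes. The count of 5 called ERK target genes was 3 with no filter, 2 with TPM, 2 without trend and 1 to 7 without a library. For other feedback genes the count of 2 was 1 with TPM and 1 to 5 without a library. Leaving out a library gave 1 to 3 in place of 2 further phosphatase and Sprouty genes, and 4 to 10 in place of 7 Ras-ERK genes. The count of 4 p38 and JNK genes was 2 without trend and 2 to 7 without a library. The cause was not tested.

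The replicate block changed no call of a member (DUSP1 adjusted p = 0.027, DUSP10 0.0080, SPRY2 0.038). Libraries that share a replicate number deviated from their group means with correlations of 0.091, -0.086 and 0.0057, so the numbers are not taken as pairs, and some libraries were closer to another number. For the named genes that are not members, 453 values stayed on their side with their direction, 102 lost the call, 1 gained it and 1 turned. Depth was not recovered, so what it limits was not measured.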
